A study of Homo sapiens with 101 samples.

Results

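Knockdown of MAPK3 in SW480 cells was measured on 6 arrays and set against 6 empty vector arrays and 6 non-target hairpin arrays of the same line. These 18 arrays, of 101 in the series, were chosen by their titles and by no measured value. The series knocked down genes of RAS signalling by short hairpin RNA in SW480 and SW620, established colorectal carcinoma lines grown from a primary tumour and a lymph node metastasis of a single patient, to find responding genes for checking a computed gene network. Affymetrix arrays measured the RNA of each sample, and levels are log2 values from RMA. All 3 groups are SW480 cells: the knockdown cells carry a hairpin against MAPK3, and the controls carry either the vector without a hairpin or a hairpin aimed at no gene. The sample names give a single hairpin code, A1, for the MAPK3 knockdown in replicate 1 and replicates 3 to 6, and no code in replicate 2. The names follow 3 styles, here called rounds: replicate 1, replicate 2, and replicates 3 to 6. Each knockdown array was compared with the controls of its own round.

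MAPK3 encodes ERK1, a kinase at the end of the RAS-RAF-MEK-ERK cascade that carries growth factor signals to the nucleus. MEK activates it by phosphorylation, and active ERK phosphorylates transcription factors such as ELK1 and SRF partners as well as the RSK and MSK kinases, so that immediate early genes are switched on. The same signal induces its own brakes, among them dual-specificity phosphatases and Sprouty proteins. In colorectal cancer the cascade is often held active by mutation.

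The knockdown array of replicate 1 stood apart from all other arrays of these 3 groups. The 20 genes with the highest level in SW480 controls over SW620 controls averaged 5.98 on it, against 8.49 to 9.86 on the 12 SW480 control arrays. The 20 genes highest in SW620 controls averaged 6.72 on it, against 4.36 to 4.51 on the SW480 controls and 7.47 to 10.02 on the SW620 arrays of the series. Of the SW620-high genes 13 were more than 2-fold above the SW480 controls of that round and 7 were within 2-fold of them, among them the stem cell marker PROM1, at 3.30 against 3.43. Of the SW480-high genes 18 were more than 2-fold lower, while the keratin gene KRT5, at 12.73 against 12.47, and NELL2, at 10.79 against 11.06, were not. On the knockdown array of replicate 2 the SW620-high genes averaged 4.41, and on those of replicates 3 to 6 they averaged 5.21 to 5.43, above all 12 controls. In replicates 3 to 6, 8 of these 20 genes were more than 2-fold higher and 1 of the SW480-high genes was more than 2-fold lower. Other SW480 arrays also had raised SW620-high genes, up to 8.02 on the MAP2K2 knockdown array of replicate 1, and a non-transduced SW480 array titled replicate 7 stood at 5.96. Results are therefore given by round or with and without replicate 1, and the part of this array's make-up in them was not tested.

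**Figure D1:**
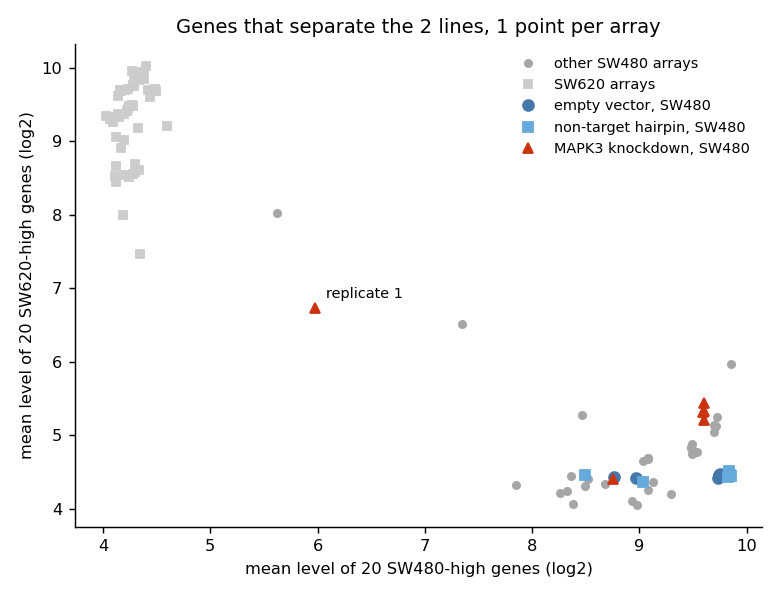
Mean log2 level of the 20 SW480-high genes (x axis) against that of the 20 SW620-high genes (y axis), 1 point per array, with the MAPK3 knockdown and both SW480 control groups in colour. The knockdown array of replicate 1 sits at 5.98 and 6.72, between the lines, and the 4 knockdown arrays of replicates 3 to 6 sit at 5.21 to 5.43 on the y axis, above all 12 SW480 controls.

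Array medians of the 18 arrays ran from 5.06 to 5.23 (log2). The GAPDH 3′ minus 5′ probe difference, a measure of RNA integrity and labelling, was 0.05 to 0.17 in replicates 1 and 2. In replicates 3 to 6 it was 0.52 to 0.76 on the knockdown arrays and 0.33 to 0.49 on the controls, without overlap. The same measure on ACTB was 0.32 to 0.47 in replicates 1 and 2. In replicates 3 to 6 the ACTB measure was 2.43 to 2.90 on the knockdown arrays and 1.88 to 2.68 on the controls, with overlap. The part of either measure in the results was not tested. Epithelial markers were present on all 18 arrays, with KRT18 at 13.49 to 14.01 and EPCAM at 10.66 or more, while the colon markers CDH17 (3.48 to 5.33) and CEACAM5 (4.82 to 5.67) were dim. The 9 epithelial markers together averaged 9.14 to 9.39 on the knockdown arrays and 8.70 to 9.11 on the controls. Leukocyte and endothelial markers had like ranges in all 3 groups, and the 7 fibroblast markers averaged 5.08 to 6.19 on knockdown arrays and 4.79 to 5.78 on controls, with LUM, itself an SW620-high gene, at 6.00 on the knockdown array of replicate 1 against a median of 3.13 over the 18 arrays.

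MAPK3 itself was lower on 5 of the 6 knockdown arrays. Only a single probe set measures it, and its design allows binding to related transcripts as well. In replicate 1 the knockdown array read 8.32, above the empty vector at 8.27 and the non-target hairpin at 8.07. In replicate 2 it read 7.41, against 7.85 and 7.74. In replicates 3 to 6 the 4 knockdown arrays read 6.77, 6.57, 6.83 and 6.79, and the 8 controls ran from 7.10 to 7.30. Groups did not overlap in replicate 2 or in replicates 3 to 6, and in replicate 1 the order was the opposite one. Over all rounds the difference was -0.32 ± 0.07 (SE, 6 knockdown and 12 control arrays), 80.2% of the control level (limma adjusted p = 0.0059 over 19775 genes; two-sided exact permutation test within rounds, p = 6.73e-04). Without replicate 1 it was -0.41 ± 0.05, 75.1% of control (limma adjusted p = 1.16e-05, and exact p = 6.73e-04, the smallest its 1485 arrangements can give). The mean of the 3 round differences for MAPK3 was -0.22. In the other 5 knockdowns of SW480, set against the same controls, it ran from -0.25 (MAP2K2) to -0.04 (MAP2K1). The MAPK3 knockdown arrays read lower than every other SW480 array of their round in replicate 2 and in replicates 3 to 6, and higher in replicate 1.

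**Figure D2:**
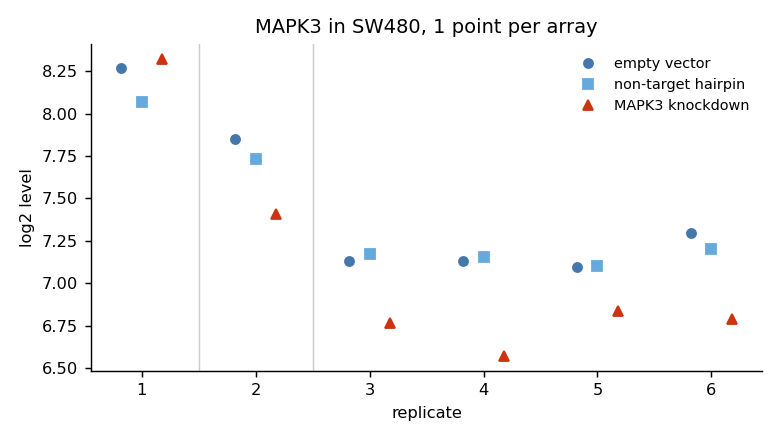
Log2 level of MAPK3 (y axis) by replicate (x axis), 1 point per array, with grey lines between the 3 rounds. The knockdown array lies above both controls in replicate 1 (8.32) and below all controls of its round in replicates 2 to 6 (6.57 to 7.41).

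Across the transcriptome, 3401 of 19775 genes (17.2%) passed an adjusted p of 0.05 in limma over all rounds, 1433 higher (7.25%) and 1968 lower (9.95%). Without replicate 1, 5533 (28%) passed, 2614 higher (13.2%) and 2919 lower (14.8%), and 3192 genes passed in both fits with the same sign. These counts rest on the close agreement of replicates 3 to 6, where the median SD within a group was 0.10, against 0.23 between the 3 rounds' differences. In that round alone limma called 8019 genes (40.6%) for the knockdown, 18.5% higher and 22.1% lower, and it called 4327 (21.9%) between the 2 kinds of control, whose median absolute difference was 0.10 against 0.11 for the knockdown. The labels call the replicates biological but do not say whether replicates 3 to 6 came from separate cultures, so p-values measure only the spread between these arrays, which may be technical. With replicates 3 to 6 averaged to 1 array per group, a setting chosen after the data were seen, limma called 0 genes with replicate 1 or without it. In those fits 1725 (8.72%) and 2293 (11.6%) genes had an unadjusted p under 0.05, and the smallest adjusted p was 0.15 and 0.080. For that reason the values in each round are given beside each test, with a second description: 1030 genes (5.21%) had every knockdown array outside the range of the controls of its round in all 3 rounds, 384 higher (1.94%) and 646 lower (3.27%).

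Rounds shared few large changes. In replicate 1, 1721 genes were 2-fold or more from the control mean, in replicate 2 there were 383, and in the mean of replicates 3 to 6 there were 254. Only 6 genes were 2-fold or more away in the same direction in all 3 rounds: TAP2, ACTA2, ZIC2 and LDLRAD3 lower, and CALML4 and SLC7A11 higher. At a difference of 0.5 or more (log2) in every round there were 108, of which 81 were lower and 27 higher. All 6 lay outside the controls in every round and passed in both fits, and they were singled out for their size, so their tests are a description.

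TAP2, a subunit of the transporter that loads peptides onto MHC class I molecules, fell in every round. Its knockdown arrays read 6.28 in replicate 1, 6.30 in replicate 2 and 7.14 to 7.36 in replicates 3 to 6. The controls read 7.61 and 7.97, then 7.47 and 7.60, then 8.51 to 8.75, differences of -1.50, -1.23 and -1.37. Over all rounds TAP2 was at 38.7% of control, a difference of -1.37 ± 0.07 (limma adjusted p = 1.42e-09; -1.34 ± 0.05 and 6.92e-12 without replicate 1). In the other 5 knockdowns of SW480 the mean of the 3 round differences for TAP2 lay between -0.19 and 0.18, each set against the same controls. Its knockdown arrays were lower than every other SW480 array of their round by at least 0.95, and no other gene had such a gap of 0.5 or more, although 56 genes lay outside all other SW480 arrays in every round, 42 lower and 14 higher.

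Among the other genes lower in every round, ACTA2, the smooth muscle actin gene and a target of SRF, read 6.31, 6.26 and 6.38 to 6.49 on knockdown arrays. Its controls read 7.95 and 7.45 in replicate 1, 7.57 and 7.72 in replicate 2 and 7.54 to 7.84 after that, a difference of -1.31 ± 0.07 (limma adjusted p = 2.95e-09). Set against the same controls, the mean of the round differences for ACTA2 was -1.85 in the HRAS knockdown, -1.08 in the MAP2K2 knockdown and -0.72 in the MAP2K1 knockdown, against -1.35 for MAPK3. ZIC2, a zinc finger transcription factor of early development, read 4.08, 4.17 and 6.16 to 6.49. Its controls were far apart in replicate 1 (7.00 and 5.03) and at 5.78 and 5.56, then 6.84 to 7.84, in the other rounds. ZIC2 also passed between the 2 kinds of control (limma adjusted p = 0.0496). For it the non-target hairpin differed from the empty vector by -1.97, -0.21 and -0.69 by round. Its 2-fold distance was taken from the mean of both controls. LDLRAD3, a receptor of the LDL receptor family, read 7.11, 7.25 and 8.27 to 8.46 against controls of 8.44 and 8.47, 8.33 and 8.27, and 9.28 to 9.56. For ZIC2 and LDLRAD3 the differences were -1.33 ± 0.15 and -1.12 ± 0.06, and both were lower than every other SW480 array in each round. The mean of the round differences for ZIC2 was also below 0 in the HRAS (-0.95), MAP2K1 (-0.85) and MAP2K2 (-0.55) knockdowns, against -1.53 for MAPK3, and for LDLRAD3 it was -0.63 in the MAP2K1 knockdown, against -1.16.

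SLC7A11 encodes the cystine and glutamate exchanger that feeds glutathione synthesis. It read 7.46, 6.97 and 8.52 to 8.63 on knockdown arrays, and 5.72 and 6.41, 5.77 and 5.05, and 7.17 to 7.68 on controls. The difference was 1.23 ± 0.11, or 234% of control (limma adjusted p = 7.75e-07), and the mean of the rounds in the MAP2K1 knockdown was 1.09. CALML4, a calmodulin-like gene of the intestinal brush border, read 6.70, 6.30 and 7.68 to 7.86 against 5.88 and 5.23, 4.62 and 5.07, and 5.92 to 6.55. Its difference was 1.42 ± 0.10 (limma adjusted p = 7.78e-08). In the other 5 knockdowns of SW480 the mean of the round differences for CALML4 ran from -0.14 (NGFR) to 0.78 (MAP2K2), against 1.36 for MAPK3. In replicate 1 alone CALML4 differed by 1.37 in the MAP2K2 knockdown, against 1.15 for MAPK3. In each of the 3 rounds the knockdown arrays of both genes stood above all controls. Against every other SW480 array of their round, both genes were higher in replicate 2 and in replicates 3 to 6, but not in replicate 1. The non-transduced SW480 array titled replicate 7 read 8.73 for SLC7A11, above the knockdown arrays of replicates 3 to 6 (8.52 to 8.63). For CALML4 it read 6.76, between the controls (5.92 to 6.55) and the knockdown arrays (7.68 to 7.86) of replicates 3 to 6.

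**Figure D3:**
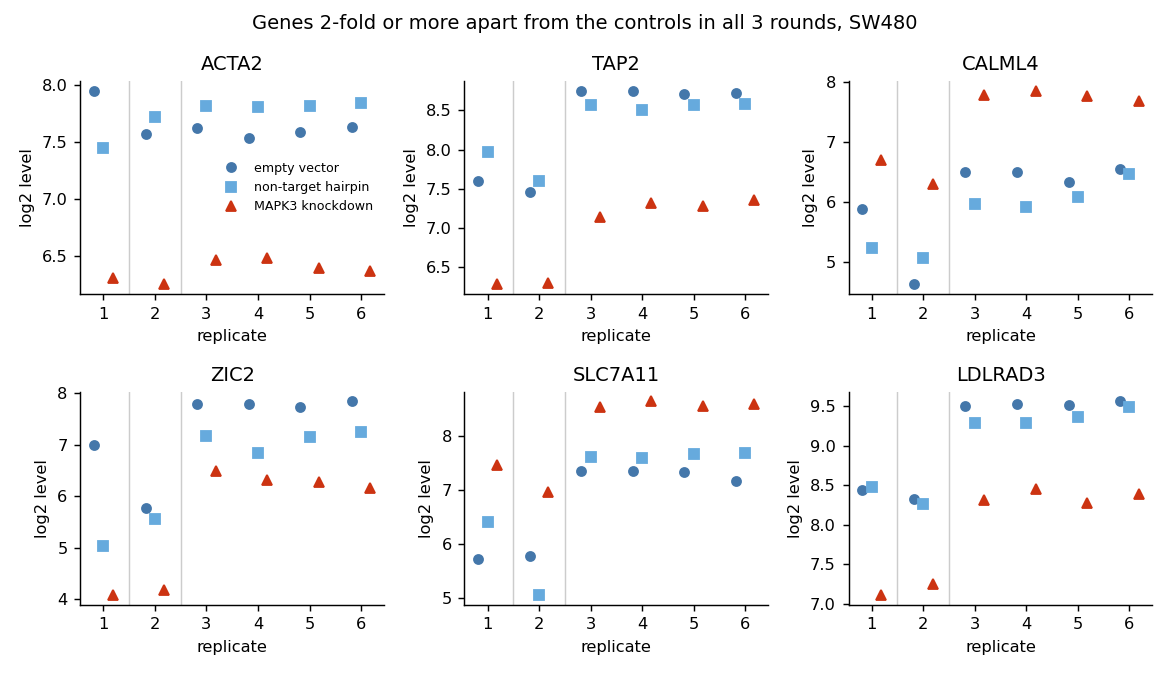
Log2 level (y axis) by replicate (x axis) of the 6 genes that were 2-fold or more from the control mean in the same direction in all 3 rounds, 1 point per array, with grey lines between rounds. In every round the knockdown triangles lie below all controls for ACTA2, TAP2, ZIC2 and LDLRAD3 and above all controls for CALML4 and SLC7A11.

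TAP2 is also a gene that interferon can induce. Of the 30 interferon-stimulated genes measured, 9 were lower (30%, against 9.95% of all genes) and 3 were higher (10%, against 7.25%). Without replicate 1 these counts were 10 (33.3%, against 14.8% of all genes) and 5 (16.7%, against 13.2%). The median difference of the 30 over all rounds was 0.01, as over all genes. The lower ones included OAS1 (-0.66 ± 0.09), IFIT5 (-0.43 ± 0.06), PARP9 (-0.44 ± 0.07) and IFIT3 (-0.86 ± 0.15), genes tied to the antiviral response, which differed by -0.06, -0.22, -0.10 and 0.17 in replicate 2. The promoters of TAP2, IFIT3 and IFIT5 are shown because they share the letters of the core that interferon regulatory factors bind, which reads GAAA, any 2 bases and GAAA again on either strand and is marked in capitals. This motif was picked after the TAP2 promoter had been seen, and the windows of OAS1 and PARP9, looked up in the same way, hold no match. Each window is the 250 bases before the RefSeq start in GRCh38.p14, on the gene's strand.
TAP2: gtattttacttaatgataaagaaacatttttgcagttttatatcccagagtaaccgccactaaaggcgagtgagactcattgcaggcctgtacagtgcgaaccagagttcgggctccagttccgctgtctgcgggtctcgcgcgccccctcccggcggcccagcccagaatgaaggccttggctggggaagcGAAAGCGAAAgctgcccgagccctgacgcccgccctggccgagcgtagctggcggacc
IFIT3: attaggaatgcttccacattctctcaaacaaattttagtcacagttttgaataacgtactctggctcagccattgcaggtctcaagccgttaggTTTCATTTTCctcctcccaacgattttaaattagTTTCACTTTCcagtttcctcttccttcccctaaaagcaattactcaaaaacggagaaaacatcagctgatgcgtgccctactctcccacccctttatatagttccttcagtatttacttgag
IFIT5: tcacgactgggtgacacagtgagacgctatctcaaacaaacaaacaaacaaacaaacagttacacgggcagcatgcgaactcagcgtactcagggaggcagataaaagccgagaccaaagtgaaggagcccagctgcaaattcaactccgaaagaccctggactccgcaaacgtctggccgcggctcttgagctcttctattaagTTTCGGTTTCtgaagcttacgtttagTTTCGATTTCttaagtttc
The TAP2 window is chr6:32838740-32838989 on the minus strand, the IFIT3 window chr10:89327747-89327996 and the IFIT5 window chr10:89414318-89414567, both on the plus strand. In TAP2 the match lies 58 to 49 bases before the start. IFIT3 holds matches at 156 to 147 and 122 to 113 bases before its start, and IFIT5 at 45 to 36 and 19 to 10. The motif occurs in 3.02% of 35116 promoter windows of this length and in 14 of the 23 interferon list genes with a window. Among the 5 of the 6 genes 2-fold apart in every round that had a window, ACTA2 held it too, at 250 to 241, and neither the CArG box that SRF binds nor the AP-1 letters TGANTCA, nor TGATGNAA of ATF4 sites, was found in any of these 5 (1.16%, 6.57% and 3.14% of all windows). A match is only a match of letters. Only 1 window of 250 bases per gene was searched, before 1 start. Sites elsewhere, or before another start of the same gene, ACTA2 included, were not looked at.

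The largest rises that passed in both fits with the same sign in every round were uneven between rounds. DACH1, a transcription factor gene, read 8.62, 5.00 and 7.90 to 8.25 on knockdown arrays in the 3 rounds, differences of 3.97, 0.60 and 3.24. PCDH19, a protocadherin, differed by 4.37, 0.00 and 3.25, and GPX2, the gastrointestinal glutathione peroxidase, by 5.86, 0.61 and 2.19. SSTR1, a somatostatin receptor, differed by 1.22, 0.02 and 3.01, and GJA1, the connexin 43 gene, by 3.58, 0.20 and 1.70. The aldo-keto reductase AKR1C3 (6.10, 0.05 and 1.72), CLRN3 (5.34, 0.56 and 1.67), the sodium channel gene SCN3A (3.86, 0.18 and 1.77) and the skin protease gene ASPRV1 (4.40, 0.16 and 1.58) followed the same order of rounds. F13A1, a coagulation factor subunit (0.13, 0.86 and 2.84), and PCP4, a calmodulin regulator (0.16, 0.06 and 2.82), rose chiefly in replicates 3 to 6. IL20RB, a cytokine receptor subunit, had the narrowest range of the 12 between rounds (2.39, 0.82 and 1.87; 1.78 ± 0.15, limma adjusted p = 5.1e-07). On the non-transduced SW480 array of replicate 7, all 12 genes read above the highest vector control of replicates 3 to 6, and for 7 of them by as much as the knockdown or more. DACH1 read 8.77 there, against a control mean of 4.88 in replicates 3 to 6, and SSTR1 read 6.95 against 3.38.

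Among the largest falls, NPNT, an integrin ligand of basement membranes, fell by 0.82, 1.26 and 1.66 in the 3 rounds (-1.45 ± 0.16, limma adjusted p = 9.6e-06). TLE4, a corepressor of Wnt target genes, differed by -2.44, -0.94 and -1.33 (-1.45 ± 0.12), and H2BC21, a histone gene, by -1.44, -0.65 and -1.65 (-1.45 ± 0.11). CKAP4, an ER membrane protein gene, differed by -0.32, -1.73 and -1.71, and the keratin-associated KRTAP3-1 by -1.38, -0.90 and -1.48. WNT5A, a ligand of non-canonical Wnt signalling, differed by -5.08, -1.64 and -0.78, EPAS1, a hypoxia-inducible factor subunit, by -3.99, -0.44 and -1.08, and DOCK9, an activator of CDC42, by -4.38, -0.96 and -0.85. In TMEM200A (-0.96, -0.12 and -2.65), TH, the tyrosine hydroxylase gene (-3.11, -0.12 and -1.75), and the histone gene H2AC8 (-0.70, -0.30 and -2.08) replicate 2 had the smallest difference. The non-transduced array of replicate 7 was below the lowest control for 8 of these 12 genes, and for none by as much as the knockdown.

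**Figure D4:**
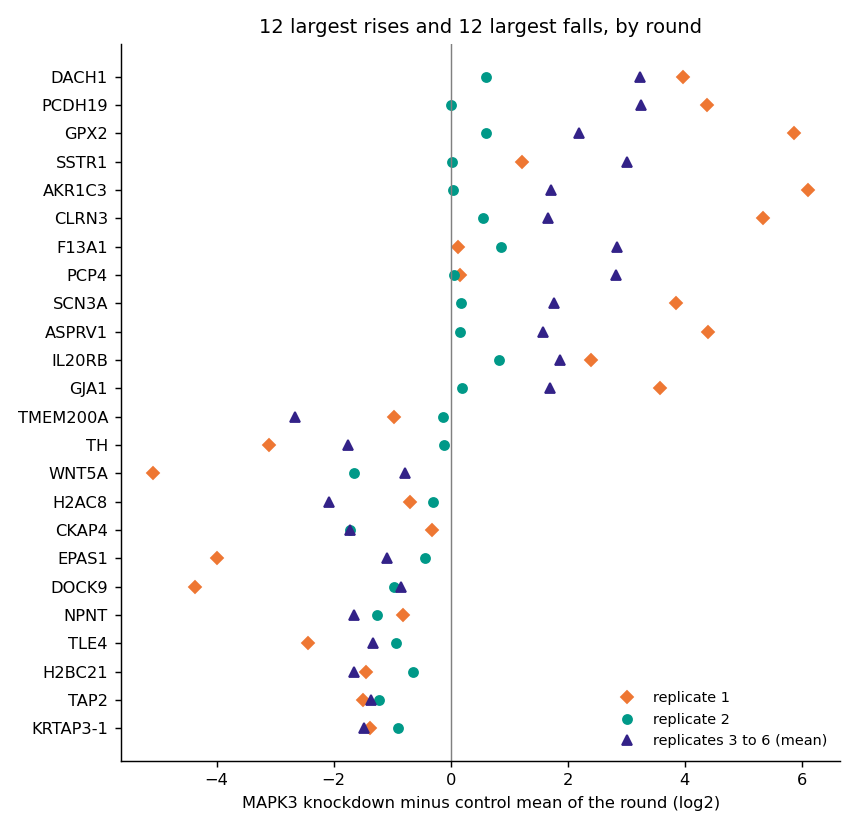
Difference between MAPK3 knockdown and the control mean of the round (x axis, log2) for the 12 largest rises and 12 largest falls (y axis), with 1 symbol per round. Replicate 2 lies near 0 for most rises. Of the falls, TAP2, H2BC21, TLE4, KRTAP3-1, NPNT, WNT5A and DOCK9 lie below 0 in all rounds by 0.65 or more.

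Of 28 measured genes of the RAS-RAF-MEK-ERK cascade, none was higher and 4 were lower (14.3%, against 9.95% of all genes), MAPK3 among them, with a median difference of -0.07 against 0.01 over all genes. RPS6KA5, which encodes the MSK1 kinase that ERK activates, fell in each round by 0.65, 0.69 and 0.85 (-0.79 ± 0.09, limma adjusted p = 6.7e-06). SRF, the partner of ELK factors on immediate early genes, was at -0.37 ± 0.06, and ELK3, an ETS factor of that group, at -0.78 ± 0.14, with -1.79, -1.25 and -0.40 by round. These 3 lay below all controls in every round. Without replicate 1 the counts were 2 higher (7.14%, against 13.2% of all genes) and 6 lower (21.4%, against 14.8%).

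Of 16 feedback inhibitors of ERK, 2 were higher (12.5%, against 7.25% of all genes) and 1 was lower (6.25%, against 9.95%), and none lay outside the controls in all rounds. The phosphatase gene DUSP4 was higher (0.89 ± 0.14) in replicate 1 (1.44) and replicates 3 to 6 (1.01) and not in replicate 2 (-0.12). DUSP1 (0.35 ± 0.11) and DUSP10 (-0.34 ± 0.10) passed through replicates 3 to 6, where they differed by 0.62 and -0.52. Of 24 output genes, those known to follow ERK activity, 2 were higher (8.33%, against 7.25% of all genes) and 3 lower (12.5%, against 9.95%). The lower ones were EPHA4, an ephrin receptor (-0.62, -0.63 and -0.38 by round), SPHK1, the sphingosine kinase gene (-0.56, -0.07 and -0.44), and IER3, an early response gene (-0.68, -0.69 and -0.19), and all 3 lay below the controls in every round. BCL2L11, the BIM death gene that ERK restrains, was higher by 0.38 ± 0.08 but by only 0.03 in replicate 2. Without replicate 1, 7 of the 24 output genes were higher (29.2%, against 13.2% of all genes) and 5 lower (20.8%, against 14.8%). Of 21 immediate early genes 3 were higher (14.3%, against 7.25% of all genes) and none lower. The higher ones were FOS (0.18, -0.16 and 0.98 by round), FOSB (0.70, -0.11 and 0.77) and KLF2 (-1.24, 0.63 and 1.52).

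Cell cycle genes split replicate 1 from the rest. The 25 genes of G1/S and DNA replication had a median difference of -1.48 in replicate 1, where none of them was above 0, and of 0.23 and 0.05 in the other rounds. Over all rounds 1 was higher and 1 lower (4% each, against 7.25% and 9.95% of all genes). Without replicate 1 these counts were 11 (44%, against 13.2%) and 3 (12%, against 14.8%). The 27 genes of G2/M and mitosis had medians of -0.56, 0.48 and 0.21, and 27 and 24 of them were above 0 in replicate 2 and in replicates 3 to 6, against 4 in replicate 1. Of them 8 were higher over all rounds (29.6%, against 7.25% of all genes) and 20 without replicate 1 (74.1%, against 13.2%). None was lower in either fit. AURKA, the mitotic Aurora A kinase gene, differed by -0.04, 0.97 and 0.39, and PTTG1, the securin gene, by 0.34, 0.23 and 0.24. Of 16 G1 cyclins, kinases and their inhibitors 3 were higher (18.8%, against 7.25% of all genes) and none lower. CDKN1B, the p27 inhibitor gene, was higher in each round (1.23, 0.85 and 0.55; 0.71 ± 0.10, limma adjusted p = 1.3e-04), and its non-target control was lower than its empty vector control by 1.05, 0.47 and 0.11. CDK6, a G1 kinase, was higher by 1.27 ± 0.20, with -0.10 in replicate 2. Of 16 p53 targets 2 were higher (12.5%, against 7.25% of all genes) and 3 lower (18.8%, against 9.95%). Among them were MDM2, the ubiquitin ligase that limits p53, at 0.66, 0.22 and 0.63, and GDF15, a stress cytokine, at -0.29, -0.65 and -0.30.

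Among lists with 11 or more measured genes, the largest share called higher over all rounds was in a stress list. Of 23 genes of the ATF4 amino acid response 11 were higher (47.8%, against 7.25% of all genes) and none lower, with a median of 0.22. The medians by round were 0.49, 0.35 and 0.11. Without replicate 1, 12 were higher (52.2%, against 13.2% of all genes) and 1 lower (4.35%, against 14.8%). Besides SLC7A11 the higher genes were led by AARS1, an alanyl-tRNA synthetase (0.37 ± 0.07), the stress transcription factor gene DDIT3 (0.33 ± 0.07) and SHMT2, of mitochondrial serine metabolism (0.38 ± 0.09). In every round 6 of the 23 lay above all controls, as did 1.94% of all genes. The non-target hairpin had less AARS1 and SHMT2 than the empty vector in replicate 1, by 0.59 and 0.71. Of 16 genes of the unfolded protein response 2 were higher (12.5%, against 7.25%) and 1 lower (6.25%, against 9.95%). Without replicate 1, 10 were higher (62.5%, against 13.2%) and 1 lower (6.25%, against 14.8%). The lower one was PDIA6, an ER disulfide isomerase, at -0.54, -0.82 and -1.21 by round (-1.03 ± 0.08, limma adjusted p = 1.1e-07), below all controls throughout. XBP1, a transcription factor of this response, was higher by 0.54 ± 0.12, and by 0.06 in replicate 2.

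Of 21 hypoxia and glycolysis genes 1 was higher (4.76%, against 7.25% of all genes) and 4 lower (19%, against 9.95%). Without replicate 1, 5 were higher (23.8%, against 13.2%) and 11 lower (52.4%, against 14.8%). The secreted peptide gene ADM differed by -1.68, -0.45 and -0.84 and NDRG1 by -0.43, -1.24 and -0.59. HK1, a hexokinase, differed by -0.19, -0.38 and -0.33, and like ADM and NDRG1 it lay below all controls in every round. Of 13 sterol synthesis genes 2 were lower, SQLE and SREBF2 (15.4%, against 9.95% of all genes), and none higher. Replicate 2 went the other way for the list, with a median of 0.52 against -0.44 in replicates 3 to 6. SREBF2, the regulator of the pathway, was at 0.12, -0.83 and -0.48. Of 21 oxidative phosphorylation genes 2 were higher and 2 lower (9.52% each, against 7.25% and 9.95% of all genes). Of 14 ribosomal protein genes none passed over all rounds and 1 was lower without replicate 1 (7.14%, against 14.8%).

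Of 19 NF-kB targets 5 were lower over all rounds (26.3%, against 9.95% of all genes) and 1 was higher (5.26%, against 7.25%). Without replicate 1, 8 were lower (42.1%, against 14.8%) and 2 higher (10.5%, against 13.2%), and the difference between the directions was not tested. NFKBIA, the inhibitor that NF-kB itself induces, was lower by the same amount in every round (-0.52, -0.56 and -0.51; -0.52 ± 0.08, limma adjusted p = 1.6e-04). ICAM1, an adhesion receptor, stood at -0.73, -0.14 and -0.26 and TNFAIP3, the A20 brake on the pathway, at 0.11, -0.20 and -0.73. NFKBIA and ICAM1 were below all controls in every round.

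Of 21 epithelial genes 7 were higher (33.3%, against 7.25% of all genes) and none lower, and without replicate 1, 10 were higher (47.6%, against 13.2%). ELF3, an epithelial ETS factor, differed by 1.43, 0.22 and 0.77 (0.79 ± 0.10), and CLDN1, a tight junction claudin, by 0.02, 1.14 and 0.94 (0.82 ± 0.10). Of 20 mesenchymal and matrix genes 4 were higher (20%, against 7.25% of all genes) and 1 lower (5%, against 9.95%). The lower one was ZEB1, a repressor of epithelial genes (-0.18, -0.55 and -0.27), and the higher ones included the basement membrane collagens COL4A1 (1.90, -0.08 and 1.91) and COL4A2 (0.19, 0.41 and 0.84) and the matrix protein gene TNC (-0.33, 1.02 and 0.97). Of 21 intestinal differentiation genes 3 were higher (14.3%, against 7.25% of all genes) and none lower. They were VIL1, the villin gene of the brush border (3.27, 0.40 and 1.15), TFF3, a goblet cell peptide (2.77, -0.05 and 0.90), and DEFA5, a Paneth cell defensin (6.59, -1.26 and 2.15). Of 17 Wnt targets 6 were higher (35.3%, against 7.25% of all genes) and 1 lower (5.88%, against 9.95%). Without replicate 1 these counts were 7 (41.2%, against 13.2%) and 2 (11.8%, against 14.8%). LGR5, a stem cell receptor, stood at 1.62, -0.09 and 0.71, and the lower one, the transcription factor LEF1, at -1.28, -0.03 and -0.57. The SW620-high genes were raised in replicate 1 and replicates 3 to 6 and not in replicate 2, as given at the start. The list medians by round were 0.18, 0.10 and 0.17 for epithelial genes and -0.18, 0.03 and 0.05 for mesenchymal and matrix genes. They were 0.17, 0.01 and 0.05 for intestinal differentiation genes and 0.40, -0.03 and 0.26 for Wnt targets. The part of the SW620-high genes in these lists was not tested.

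**Figure D5:**
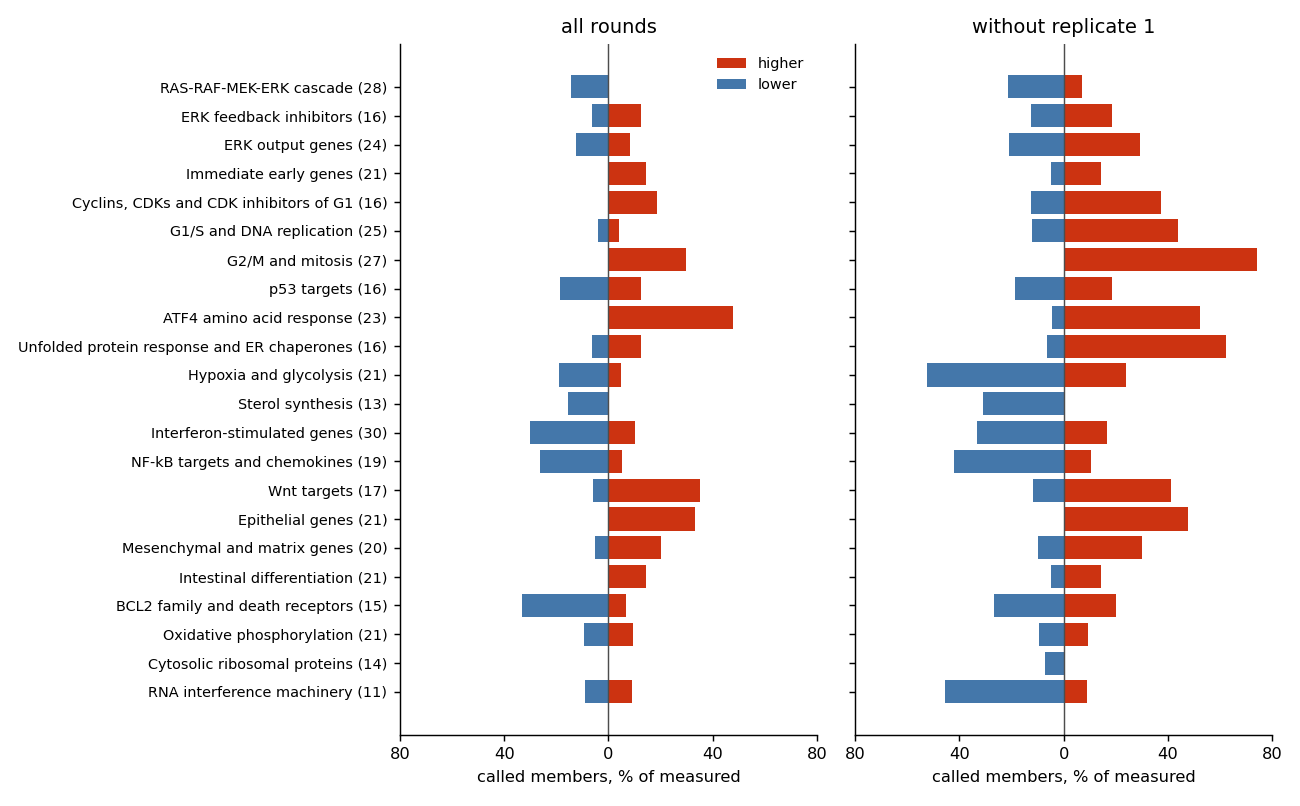
Percent of the measured members of each gene list with 11 or more measured genes called lower (blue, left) or higher (red, right) by limma at an adjusted p of 0.05, over all rounds (left panel) and without replicate 1 (right panel), with the number measured in brackets. Among the lists drawn, the ATF4 list has over all rounds the largest share higher (47.8%), and without replicate 1 the G2/M list does (74.1%).

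Of 15 death and survival genes 5 were lower (33.3%, against 9.95% of all genes) and 1 was higher (6.67%, against 7.25%). Without replicate 1, 4 were lower (26.7%, against 14.8%) and 3 higher (20%, against 13.2%). BAD, a pro-death BCL2 family gene, differed by -0.73, -0.27 and -0.31 and BCL2L2, a survival gene of the family, by -0.10, -0.04 and -0.33, both below all controls in every round. XIAP, a caspase inhibitor, was higher by 0.26 ± 0.08. Of the other genes the study aimed at, CDK5 was lower by 0.52 ± 0.13 (limma adjusted p = 0.0093), with 0.32 in replicate 2 and -0.52 in replicates 3 to 6. Of 11 genes of the RNA interference machinery 1 was higher and 1 lower over all rounds (9.09% each, against 7.25% and 9.95% of all genes). Without replicate 1 these counts were 1 (9.09%, against 13.2%) and 5 (45.5%, against 14.8%). AGO1, which carries the hairpin's product, was at -0.25 ± 0.05 and DICER1 at 0.31 ± 0.09.

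Histone genes picked by symbol, linker histones included, were a group chosen after their values were seen. They were lower in 17 of 45 and higher in none, where 9.95% and 7.25% of all genes were lower and higher. Their medians by round were -0.17, 0.17 and -0.17, so that replicate 2 had the opposite sign. Many of these near-identical genes share sequence, and their probe sets may not tell them apart.

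Genes at the extremes of replicate 1 were found again only in part. The 100 genes highest there had a median difference of 2.85 in replicate 1, of -0.10 in replicate 2 and of 0.67 in replicates 3 to 6. In replicate 2, 39 of them were above 0 and 1 was 2-fold higher, while in replicates 3 to 6, 85 were above 0 and 36 were 2-fold higher. The 100 lowest had a median of -2.93 in replicate 1, 0.03 in replicate 2 and -0.01 in replicates 3 to 6. High in replicate 1 against the other rounds were DKK4, a secreted Wnt inhibitor (6.36, -0.44 and 0.80), TXNIP, the thioredoxin inhibitor (3.60, -2.79 and 0.28), and LPXN (4.08, -0.40 and -0.05), and low were DCLK1 (-4.77, 1.39 and 0.47), KRT13 (-4.66, 1.77 and -0.21), RGCC (-5.12, -0.24 and 0.42) and the transglutaminase TGM2 (-4.33, -0.02 and 0.79). RASSF6, at 5.73, -0.23 and 3.11, and the guidance receptor ROBO1, at 4.68, -0.03 and 1.21, were high in replicate 1 and in replicates 3 to 6.

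The 2 kinds of control differed from each other in 58 genes (0.293%), 6 higher (0.0303%) and 52 lower (0.263%) with the non-target hairpin. TULP3 was lower with it by 1.49, 1.00 and 0.98 in the 3 rounds and COX7C by 2.06, 1.06 and 0.59. Both were called higher in the knockdown (0.75 ± 0.11 and 0.51 ± 0.16), with at least 1 knockdown array inside the range of its controls. AMIGO2, an adhesion protein gene, was higher with the non-target hairpin by 0.43, 0.22 and 0.36 and lower in the knockdown than either control (-0.88, -0.91 and -0.63).

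The response was set against that of SW620 by a test of the difference between lines. The test passed in 3776 genes (19.1%), 1914 higher (9.68%) and 1862 lower (9.42%) in SW480. The SW480 knockdown array of replicate 1, which stood apart, was part of this test. Without replicate 1 the test passed in 4998 of 19775 genes, and 3385 of these were among the 3776 with the same sign. With replicates 3 to 6 averaged to 1 array per group it passed in 4. On the SW620 knockdown array of replicate 2 the GAPDH 3′ minus 5′ difference was 2.95, against 0.14 and 0.06 on the controls of that round. The part of this array in the test and in the SW620 values of replicate 2 was not tested. For MAPK3 the SW620 differences were -0.62, -0.86 and -0.52, and the difference between lines was 0.27 ± 0.10 (limma adjusted p = 0.060). TAP2 differed by -2.15, 0.39 and -1.41 in SW620, with no difference between lines that passed (-0.13 ± 0.22, limma adjusted p = 0.73). DACH1 (3.70), GPX2 (2.93) and SCN3A (2.84) had the more positive difference in SW480, and GASK1B (-4.05) and SYTL2 (-3.05) the more negative one, while GASK1B in SW480 alone differed by -0.10 ± 0.09 (limma adjusted p = 0.51).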

How the data were processed

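Groups were taken from the array titles, and the rounds from the 3 styles of sample names. The deposited values are log2 levels that the authors made with RMA, per the submitters' processing notes; its version is not given in the sources used here, and no further normalisation was applied. Of 54675 probe sets, 41097 name 1 gene, and the brightest probe set stood for each of 19775 genes. Arrays were compared with limma 3.58.1 (R 4.3.3; linear fits with trended, robust variance moderation), as knockdown minus the mean of both controls with a term for round, two-sided, with Benjamini-Hochberg adjustment over all genes and a threshold of 0.05. The steps were tested on simulated data with independent noise on each array and the same change in every round. That setting held no difference in effect between rounds and no noise shared by replicates 3 to 6. It therefore cannot speak for the counts called here. MAPK3 was also tested by exact permutation within rounds. Besides MAPK3, genes were named by rule: the 12 largest rises and falls called in both fits with the same sign in every round, up to 4 called members of each list by smallest p, the 8 most extreme each way in replicate 1, 6 each way between lines and 5 each way between controls. Members, lists and this rule were chosen with earlier results of these data known, and the 6 genes 2-fold apart in every round, the other SW480 knockdowns beside them, the motif and the histone group were chosen after their values were seen. Promoters are from the RefSeq table for GRCh38.p14. Alternatives are listed in the closing section. Figures used matplotlib 3.10.9.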

Additional observations from a re-analysis of the deposited data

Results flagged for a closer look

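Among the 6 knockdown arrays, each set against the control mean of its round, 1 array stood far from the other 5 in 14 of the genes described above, and in the mean of the SW480-high genes. In all, 15 of 36 such groups were marked. The rule marks about 1 in 20 by chance only among independent values of equal spread. That rate cannot be used here, because replicates 3 to 6 are a single round of close arrays. Nearly all of the genes were also picked for large differences. Replicate 1 was the distant array for MAPK3 at 0.15 (the others at -0.59 to -0.33), GPX2 at 5.86, AKR1C3 at 6.10, CLRN3 at 5.34, ASPRV1 at 4.40, WNT5A at -5.08, EPAS1 at -3.99, DOCK9 at -4.38 and TLE4 at -2.44, and for CKAP4 at -0.32, where the others lay at -1.84 to -1.66. It was also the distant array for the mean of the SW480-high genes, at 5.98 against 8.76 to 9.60 on the other knockdown arrays. Replicate 2 was the distant array for DACH1 at 0.60 (the others at 3.02 to 3.97), PCDH19 at 0.0035 (3.21 to 4.37), H2BC21 at -0.65 (-1.68 to -1.44) and KRTAP3-1 at -0.90 (-1.57 to -1.38).

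The knockdown effect differed between SW480 and SW620, by the test of that difference, in 3776 genes. The SW620 knockdown array of replicate 2, with a GAPDH 3′ minus 5′ difference of 2.95, was part of this test. So was the SW480 knockdown array of replicate 1, and without replicate 1 the test passed in 4998 genes. More positive in SW480 were DACH1 (3.70), DDIT4 (3.10), DNAJC12 (3.03), DEFA5 (2.99), GPX2 (2.93) and SCN3A (2.84). More negative were GASK1B (-4.05), SYTL2 (-3.05), CADM1 (-2.57), TNFRSF11B (-2.40), NRP1 (-2.29) and ZNF519 (-2.26). DDIT4 differed by 2.34 in replicate 1 of SW480 and by 0.43 and 0.11 in the other rounds.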

How the results depend on the processing

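The count of genes called over all rounds (3401) fell to 221 with no term for round, 2046 against the non-target hairpin alone, 2110 with all arrays of the series in the model and 539 with arrays averaged in pairs by name ending, and rose to 8019 in replicates 3 to 6 only. Without replicate 1 (5533) the same settings gave 479 with no term for round, 3184 with all arrays and 2297 in pairs. With replicates 3 to 6 averaged to 1 array per group, chosen after seeing the data, limma called 0 in both, 0 between the controls (324 at an unadjusted p under 0.05) and 4 between the lines. The control comparison (58) gave 4327 in replicates 3 to 6 only and 512 without replicate 1, and the difference between lines (3776) gave 9249 in replicates 3 to 6 only. A replicate block in place of the round gave 2453 over all rounds, 4730 without replicate 1, 8 between the controls and 2623 between the lines. The numbers do not pair arrays beyond the round: within replicates 3 to 6, deviations of same-numbered arrays correlated across genes at -0.13 to 0.12. Leaving out 1 array at a time gave 2572 to 4711 genes over all rounds and 4687 to 7637 without replicate 1, the lowest without knockdown replicate 5 and the highest without knockdown replicate 2. The MAPK3 difference ran from -0.41 to -0.27 over these runs, with exact p of at most 0.0020. Of 107 single genes followed, 96 kept their side of the threshold under the block and 40 with arrays in pairs. Signs turned only where all probe sets of a gene were averaged, for COX5A (-0.0084, and -0.051 without replicate 1), AGO1 (0.090 and 0.099) and NDUFS1 without replicate 1 (0.0073). The cause of these shifts was not tested. The number of arrays limits the precision, and replicates 1 and 2 hold 1 knockdown array each.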
